A study of Homo sapiens with 17 samples.

Results

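The genes described here were the tubulin isotypes expressed in BJ fibroblasts: the alpha-tubulins TUBA1A, TUBA1B, TUBA1C and TUBA4A, the beta-tubulins TUBB, TUBB2A, TUBB2C (listed under its current symbol, TUBB4B), TUBB3 and TUBB6, and the gamma-tubulin TUBG1. They were chosen by name, and all 10 were among the 9699 genes of the deposited expression table. Microtubules are hollow polymers of alpha/beta-tubulin heterodimers, and gamma-tubulin sits in the ring complex from which they grow. Most vertebrate cells make several isotypes of each, encoded by separate genes, and the amount of tubulin mRNA is held in check by a well-known feedback, in which excess free tubulin leads to decay of tubulin mRNAs that are being translated. Alpha- and beta-tubulin fold with the help of prefoldin, the CCT chaperonin and the tubulin cofactors.

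RNA-Seq and ribosome profiling (Ribo-Seq, the sequencing of ribosome-protected mRNA fragments) were applied to BJ cells, human foreskin fibroblasts immortalized with the telomerase subunit hTERT, in 5 states. Proliferating cells grew under normal conditions, and quiescence was brought about by serum depletion. Cells carrying a tamoxifen-inducible RASG12V oncogene were collected 5 days (pre-senescence) and 14 days (senescence) after its induction. Transformed cells combined hTERT, knockdowns of p53 and p16INK4A and SV40 small T with constitutive retroviral RASG12V, so that, beyond the hTERT shared by all cells, they differed from the proliferating cells in every one of these alterations and not in RAS alone. Proliferation, quiescence and pre-senescence were profiled in sequencing run 1, and a separate proliferating culture, senescence and transformed cells in run 2.

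The 17 samples stood in 12 columns of FPKM (sequenced fragments scaled by mRNA length and by library size), 1 for each state, run and assay. Each column for proliferation of run 1 and for quiescence, and the RNA column for pre-senescence, joined 2 samples into 1 value. There was therefore no spread between replicates to set against any difference, no test was possible, and read depth could not be read from FPKM. Each state was compared with the proliferating cells of its own run, and a difference is called here only where it passed 2-fold. The difference between the proliferating columns of the 2 runs served as a yardstick. By the study's sample list, RNA-Seq was paired-end in run 1 (fragments read from both ends) and single-end in run 2. Run, culture and, for RNA, this read layout cannot be told apart in the yardstick. Translation efficiency (TE) was log2 of the Ribo-Seq level over the RNA level.

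For a pair of run 2 Ribo-Seq samples, the titles and the condition field of the labels were opposite, one naming as senescence what the other named proliferation. They were grouped by title. Across 9497 genes, RNA and Ribo-Seq changes in senescence were correlated at r = 0.83 with the titles and at r = -0.83 with the condition field, against 0.70 in quiescence, 0.45 in pre-senescence and 0.85 in transformed cells with no such conflict (genes share their libraries, and no p is given). In the column titled senescence, Ribo-Seq MKI67 was at the floor of 1 FPKM, as was its RNA in senescence, and it was 43.0 in the column titled proliferation, so the markers went with the titles. If the condition field were nevertheless right, every Ribo-Seq change in senescence below would take the opposite sign, the Ribo-Seq and TE values given for the proliferating cells of run 2 and for senescence would be exchanged, and those in transformed cells would be set against senescence.

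All 8 fibroblast markers examined were present in every column, with VIM between 2956 and 4881 FPKM of RNA, but their levels were not steady. COL1A1 RNA differed between the proliferating cultures (371 in run 1 and 1328 in run 2) and stood at 51.6 in senescence. In senescence 5 of the 8 were past 2-fold lower by RNA (13.2% of all genes tested) and 5 by Ribo-Seq (16.8%). By RNA 3 were lower in pre-senescence (2.05%), 1 in transformed cells (5.39%) and 0 in quiescence (2.43%). By Ribo-Seq 3 were higher in quiescence (9.31%), 1 lower in pre-senescence (10.6%) and 4 lower in transformed cells (7.44%). The keratins KRT8, KRT18 and KRT19, used as epithelial markers, were measured as well. KRT18 RNA lay between 84.5 and 257 FPKM and KRT8 RNA between 4.84 and 18.8. KRT19 RNA stood at 39.8 FPKM in the proliferating cells of run 2, at the floor in those of run 1, in pre-senescence and in transformed cells, and at 1.80 in quiescence and 4.43 in senescence, so the run 2 control stood apart, and the part of this in the results was not tested. CD68 RNA, a macrophage marker, lay between 38.3 and 132 FPKM. EPCAM, CDH1, PTPRC, PECAM1, VWF and CDH5 were looked up too and were not among the 9699 genes. By RNA, all 5 proliferation markers measured were past 2-fold lower in quiescence (2.43% of all genes tested) and in senescence (13.2%). None was in pre-senescence (2.05%) or transformed cells (5.39%). By Ribo-Seq 4 were lower in quiescence (8.2%), 3 in pre-senescence (10.6%), 5 in senescence (16.8%) and 0 in transformed cells (7.44%). MKI67 RNA stood at 73.9 and 44.0 FPKM in proliferation, 32.8 in quiescence and at the floor of 1 in senescence. CDKN2A, which encodes p16INK4A and another protein that its row does not separate, went against its knockdown label, with RNA at 6.75 in proliferating and 12.6 FPKM in transformed cells of run 2. HRAS RNA lay between 1254 and 2415 FPKM in all states but transformed cells (312), and its row cannot separate the cells' own gene from a construct. Proliferating and quiescent cells were thus in the same range as cells with RASG12V induced. Whether they carried the inducible construct as well was not tested.

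**Figure D1:**
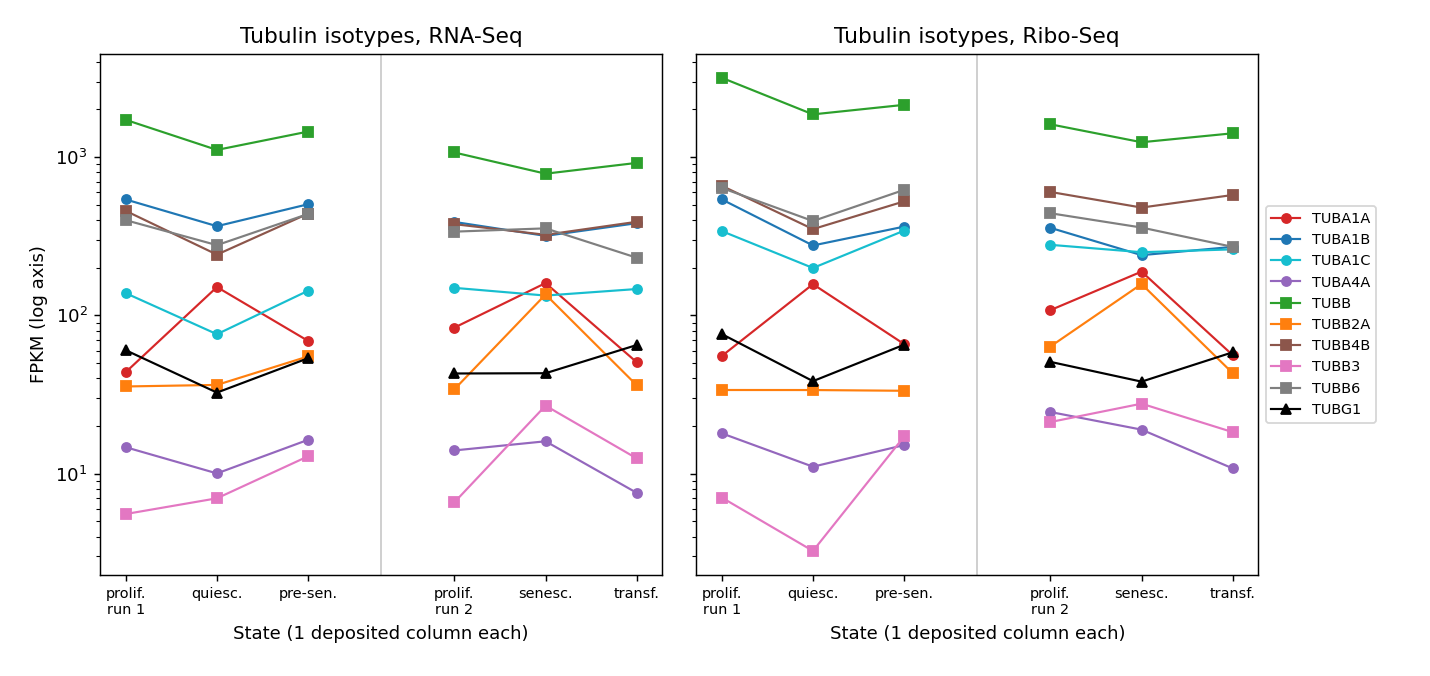
Level of each tubulin isotype (FPKM, log axis) by RNA-Seq (left) and Ribo-Seq (right) in the 6 deposited columns of each assay. Circles are alpha-, squares beta- and triangles gamma-tubulin, lines only join the points of a gene within a run, and each point is 1 column with no error bar. TUBB lies above all others throughout, and TUBA1A, TUBB2A and TUBB3 leave the common course of the abundant isotypes.

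TUBA1B, the most abundant alpha-tubulin by RNA in every column, ranked 83rd among the 9699 genes by RNA level in proliferating cells of run 1. Its RNA stood at 540.2 FPKM in proliferation, 366 in quiescence and 504 in pre-senescence in run 1, and at 389 in proliferation, 318 in senescence and 382 in transformed cells in run 2. On ribosomes it stood at 541, 276 and 364 FPKM in run 1, and at 358, 240.2 and 271 in run 2, in the same order. Both proliferating cultures were thus above every other state of their run in each assay. In quiescence TUBA1B was 1.48-fold lower by RNA and 1.96-fold lower by Ribo-Seq, the latter just short of 2-fold. The second proliferating culture was itself 1.39-fold (RNA) and 1.51-fold (Ribo-Seq) below the first.

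TUBA1C, a close relative of TUBA1B, had RNA levels of 138, 76.1 and 143 FPKM in proliferation, quiescence and pre-senescence, and of 149, 133 and 147 in proliferation, senescence and transformed cells. Its Ribo-Seq levels were 341, 199 and 343 FPKM in run 1 and 279, 251 and 261 in run 2. Quiescence alone stood apart, 1.82-fold lower by RNA and 1.71-fold lower by Ribo-Seq. No other state differed from its control by as much as 1.12-fold in either assay. On a per-length scale TUBA1C carried 18.8% of the alpha-tubulin RNA but 35.7% of the alpha-tubulin Ribo-Seq signal in proliferating cells of run 1.

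TUBA1A, best known as the alpha-tubulin of developing neurons, took another course. Its RNA stood at 43.8 FPKM in proliferation, 151 in quiescence and 68.9 in pre-senescence, and in run 2 at 83.6 in proliferation, 160.0 in senescence and 50.5 in transformed cells. The Ribo-Seq levels were 55.3, 157 and 65.8 FPKM in run 1, and 108, 189 and 56.0 in run 2. Quiescent and senescent cells were above their controls and transformed cells below theirs, in both assays. In quiescence TUBA1A was 3.45-fold higher by RNA and 2.85-fold higher by Ribo-Seq, and only 89 of 9473 genes tested, TUBA1A included, had an RNA change at least as high. Set against the proliferating cells of run 2 instead, its quiescent level was higher but short of 2-fold in both assays. In senescence it was 1.91-fold (RNA) and 1.753-fold (Ribo-Seq) higher than in its control, short of 2-fold, and the proliferating cultures themselves differed by 1.91-fold and 1.95-fold. Transformed cells were 1.66-fold lower by RNA and 1.93-fold lower by Ribo-Seq, so that senescence exceeded transformation by 3.17-fold and 3.38-fold. Against the proliferating cells of run 1 (43.8 and 55.3 FPKM), transformed cells (50.5 and 56.0) were not lower in either assay.

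TUBA4A is the alpha-tubulin whose gene, unlike the others, encodes no C-terminal tyrosine. Its RNA was low, at 14.7, 10.0 and 16.4 FPKM in proliferation, quiescence and pre-senescence of run 1 and at 14.0, 16.02 and 7.56 in proliferation, senescence and transformed cells of run 2. Ribo-Seq levels ran at 18.0, 11.1 and 15.2 FPKM, and at 24.5, 19.0 and 10.8. Transformed cells were lowest in run 2, by 1.85-fold in RNA and 2.27-fold in Ribo-Seq, and quiescence lowest in run 1, by 1.46-fold and 1.63-fold.

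TUBA1A, TUBA1B and TUBA1C lie next to each other on chromosome 12, and their coding sequences are nearly identical. Because the authors kept only uniquely aligned reads, reads shared between these genes, between TUBB2A and its neighbour TUBB2B on chromosome 6, or between TUBB and TUBB4B could have been lost, and the level of each is uncertain to that extent. Near-identical relatives nevertheless differed in direction: in quiescence TUBA1A stood higher while TUBA1B and TUBA1C stood lower in both assays.

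Among the beta-tubulins, TUBB, the general isotype of dividing cells, was the most abundant tubulin in every column. Its RNA stood at 1720.1 FPKM in proliferation, where it ranked 11th of all genes, 1110.2 in quiescence and 1450.3 in pre-senescence, and in run 2 at 1069.7 in proliferation, 786 in senescence and 919 in transformed cells. Ribo-Seq levels were 3173, 1862 and 2139 FPKM in run 1 and 1612, 1241 and 1414 in run 2. Proliferation again led each run. In quiescence TUBB was 1.55-fold lower by RNA and 1.70-fold lower by Ribo-Seq, in senescence 1.36-fold and 1.30-fold lower. These differences were no larger than the one between the proliferating cultures, where run 2 was 1.61-fold (RNA) and 1.97-fold (Ribo-Seq) below run 1.

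TUBB4B, another broadly expressed beta-tubulin, had RNA levels of 458, 242 and 440 FPKM in proliferation, quiescence and pre-senescence and of 377, 323 and 390.4 in proliferation, senescence and transformed cells. On ribosomes the levels were 659, 351 and 525 FPKM, and 603, 480.0 and 576. Quiescence was the low state, 1.89-fold below its control by RNA and 1.88-fold by Ribo-Seq. Here the proliferating cultures lay closer together, 1.21-fold apart by RNA and 1.09-fold by Ribo-Seq, so the quiescent difference was the larger.

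TUBB6, a beta-tubulin found mostly outside the nervous system, had RNA levels of 399.7, 278 and 438 FPKM in run 1 and of 338, 355 and 231 in run 2, in the same order of states. By Ribo-Seq it stood at 639, 394 and 621 FPKM, and at 442, 359 and 271. It was lowest in quiescence in run 1 (1.44-fold by RNA, 1.62-fold by Ribo-Seq) and lowest in transformed cells in run 2 (1.46-fold and 1.63-fold). The Ribo-Seq difference between proliferating cultures was 1.45-fold.

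TUBB2A, a beta-tubulin abundant in neurons, was low in all states but senescence. RNA levels were 35.6, 36.4 and 55.1 FPKM in proliferation, quiescence and pre-senescence, and 34.1, 136 and 36.1 in proliferation, senescence and transformed cells. Ribo-Seq levels were 33.8, 33.8 and 33.4 FPKM in run 1, and 63.5, 158 and 43.1 in run 2. Senescence stood 3.98-fold above its control by RNA and 2.48-fold by Ribo-Seq, and above the transformed cells by 3.75-fold and 3.66-fold. Of 9560 genes tested in senescence, 116, TUBB2A included, had an RNA change at least as high. In pre-senescence the RNA was 1.55-fold higher while the Ribo-Seq level differed by only 1.01-fold. The proliferating cultures agreed in TUBB2A RNA to 1.04-fold but differed 1.88-fold in Ribo-Seq, so the size of the Ribo-Seq difference in senescence rests on which control is used.

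TUBB3, the class III beta-tubulin used as a marker of neurons, was the scarcest isotype by RNA in proliferation, ranking 7441st of 9699 genes in run 1. RNA levels were 5.56, 6.99 and 12.9 FPKM in run 1 and 6.58, 26.9 and 12.5 in run 2. By Ribo-Seq they were 7.07, 3.25 and 17.2 FPKM in run 1, and 21.2, 27.7 and 18.3 in run 2. All 3 states with RASG12V induced or transduced had RNA levels above the other states: TUBB3 RNA was 2.32-fold higher in pre-senescence, 4.09-fold higher in senescence and 1.90-fold higher in transformed cells. Its Ribo-Seq level was 2.43-fold higher in pre-senescence, 1.31-fold higher in senescence and 1.16-fold lower in transformed cells, and in quiescence it was 2.18-fold lower while the RNA was 1.26-fold higher. The Ribo-Seq level of the proliferating culture in run 2 was 2.997-fold that in run 1, more than any of these Ribo-Seq differences, and at a few FPKM the counting error, not known here, is at its largest.

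TUBG1, the gamma-tubulin of the nucleating ring, had RNA levels of 60.3, 32.5 and 53.7 FPKM in proliferation, quiescence and pre-senescence, and of 43.0, 43.1 and 65 in proliferation, senescence and transformed cells. Ribo-Seq levels were 76.3, 38.4 and 65.3 FPKM, and 50.9, 38.2 and 58.5. Quiescence was low by 1.85-fold in RNA and 1.98-fold in Ribo-Seq. Transformed cells were high, by 1.51-fold in RNA and 1.15-fold in Ribo-Seq. The proliferating cultures differed by 1.40-fold and 1.499-fold.

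**Figure D2:**
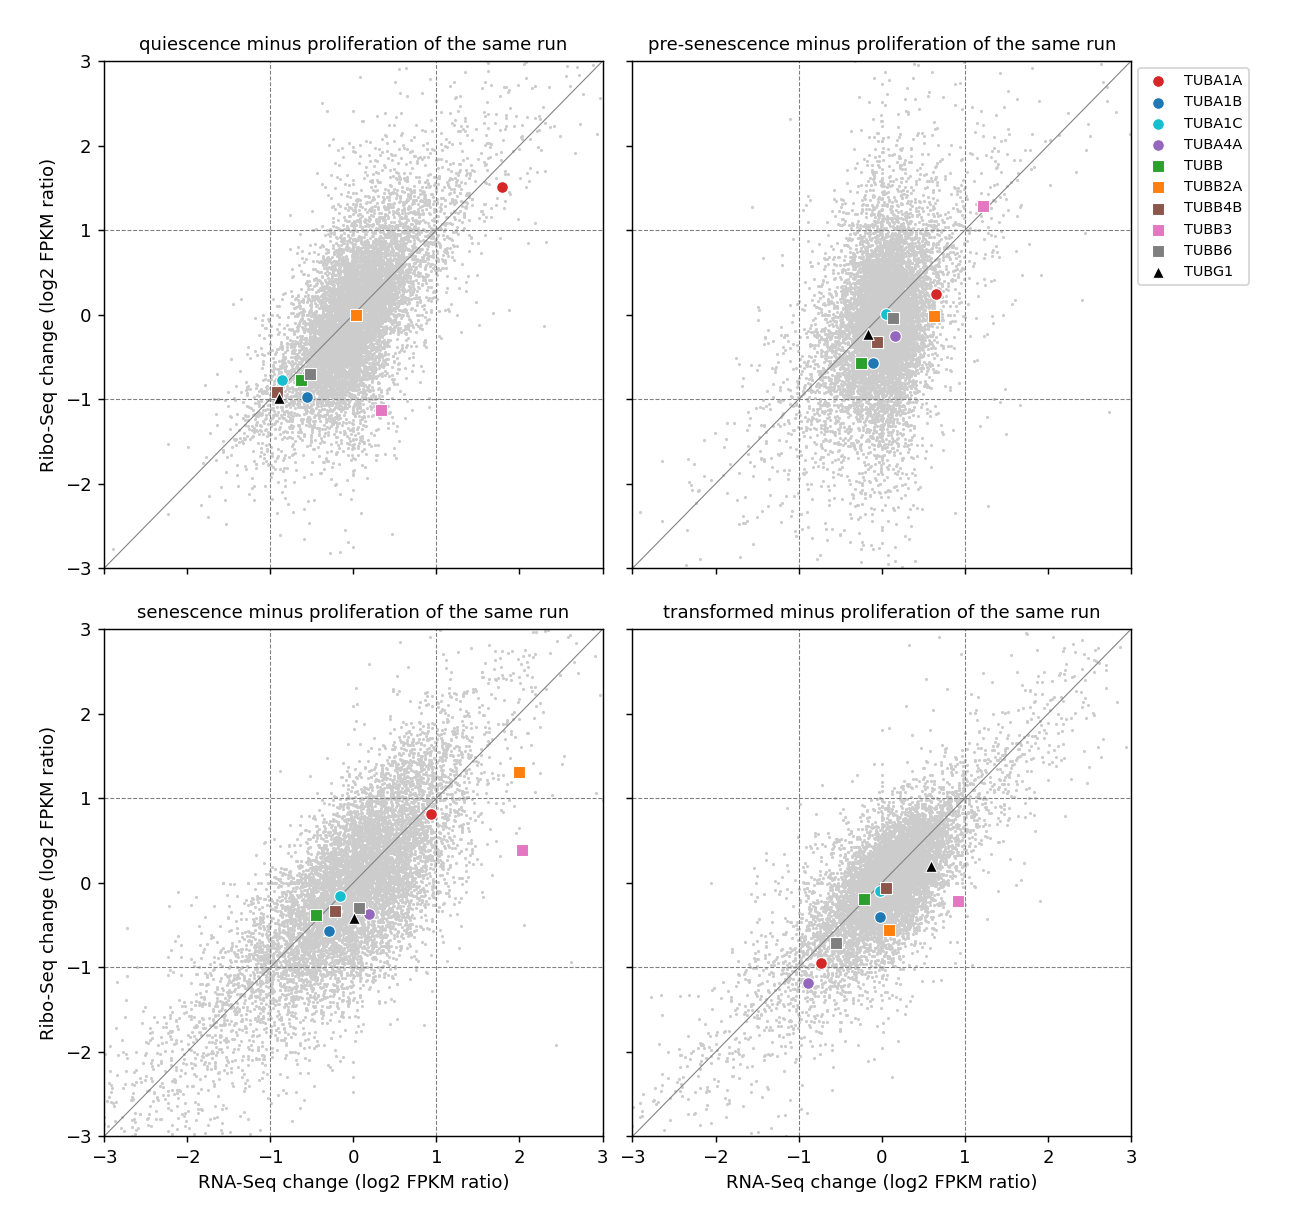
RNA change (horizontal) against Ribo-Seq change (vertical) in each of 4 states, both as log2 FPKM ratios to the proliferating cells of the same run. Grey points are all other genes tested, coloured symbols the tubulin isotypes, dashed lines mark 2-fold and the diagonal marks equal change; genes beyond the axes are not drawn. In quiescence 7 isotypes cluster at lower left with TUBA1A alone at upper right, and in senescence TUBB2A and TUBB3 lie at the right, below the diagonal.

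Against the control of its own run, most isotypes were lower in quiescence. The median RNA change of the 10 was 1.47-fold lower (log2 -0.56, against -0.01 over all genes tested), and the median Ribo-Seq change was 1.71-fold lower (log2 -0.77, against -0.07). By RNA 1 of 10 isotypes was past 2-fold higher (TUBA1A; 4.11% of all genes tested) and 0 lower (2.43%). By Ribo-Seq 1 was higher (TUBA1A; 9.31%) and 1 lower (TUBB3; 8.2%). At the smaller threshold of 1.5-fold, 4 of 10 were lower by RNA against 8.94% of all genes, and 8 of 10 were lower by Ribo-Seq against 22.6%. TUBB2A was level in both assays. With the proliferating cells of run 2 as control, 0 isotypes passed 2-fold by RNA. TUBA1A, at 151 against 83.6 FPKM by RNA and 157 against 108 by Ribo-Seq, then passed in neither assay. The downward shift rested on the control too. With that control, the log2 changes of the summed alpha- and beta-tubulins were -0.078 and -0.13 by RNA and -0.26 and -0.052 by Ribo-Seq. The proliferation markers were lower in the same columns, and their part in this shift was not tested.

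Pre-senescence moved few isotypes. TUBB3 alone passed 2-fold, higher by RNA (1.82% of all genes tested) and by Ribo-Seq (7.31%), and 0 of 10 were lower (2.05% and 10.6%). The median change was 0.09 by RNA and -0.13 by Ribo-Seq on the log2 scale, against 0.04 and -0.12 over all genes. With the control of the other run, 0 isotypes passed 2-fold in either assay. TUBA1A, TUBB2A and TUBB3 RNA were past 1.5-fold higher, against 5.8% of all genes, and no isotype was past 1.5-fold lower in either assay (6.82% of genes by RNA, 23.3% by Ribo-Seq).

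In senescence 2 of 10 isotypes were past 2-fold higher by RNA (TUBB2A and TUBB3; 7.19% of all genes tested) and 0 lower (13.2%). By Ribo-Seq 1 was higher (TUBB2A; 11.2%) and 0 lower (16.8%). The abundant isotypes stayed near their control: TUBA1B, TUBA1C, TUBB, TUBB4B and TUBB6 lay within 1.49-fold in both assays, although all 5 proliferation markers were past 2-fold lower. The median change was 0.04 by RNA and -0.31 by Ribo-Seq (all genes -0.02 and -0.12). With the control of the other run, 4 isotypes passed 2-fold by RNA and 5 by Ribo-Seq in either direction.

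Transformed cells had 0 of 10 isotypes past 2-fold by RNA (4.97% of all genes higher, 5.39% lower). By Ribo-Seq 0 were higher (5.34%) and 1 lower (TUBA4A; 7.44%). With the control of the other run, 1 passed 2-fold by RNA and 3 by Ribo-Seq. Senescent and transformed cells were profiled in the same run, and senescence was past 2-fold above transformed cells for 4 of 10 isotypes by RNA (TUBA1A, TUBA4A, TUBB2A and TUBB3; 8.19% of all genes) and for 2 by Ribo-Seq (TUBA1A and TUBB2A; 12.8%), with 0 below (15.3% and 17.5%). This comparison shares its samples with the comparisons to the control and is not independent of them.

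The proliferating cultures of the 2 runs differed past 2-fold in 0 of 10 isotypes by RNA (4.93% of all genes higher and 3.05% lower in run 2) and in 1 by Ribo-Seq (TUBB3, higher in run 2; 10.5% higher and 8.37% lower). Past 1.5-fold, 2 isotypes differed by RNA, TUBA1A and TUBB (26.6% of all genes in either direction), and 5 by Ribo-Seq, TUBA1A, TUBA1B, TUBB, TUBB2A and TUBB3 (42.1%). Of the abundant isotypes, TUBA1C, TUBB4B and TUBB6 stayed within 1.5-fold in both assays.

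**Figure D3:**
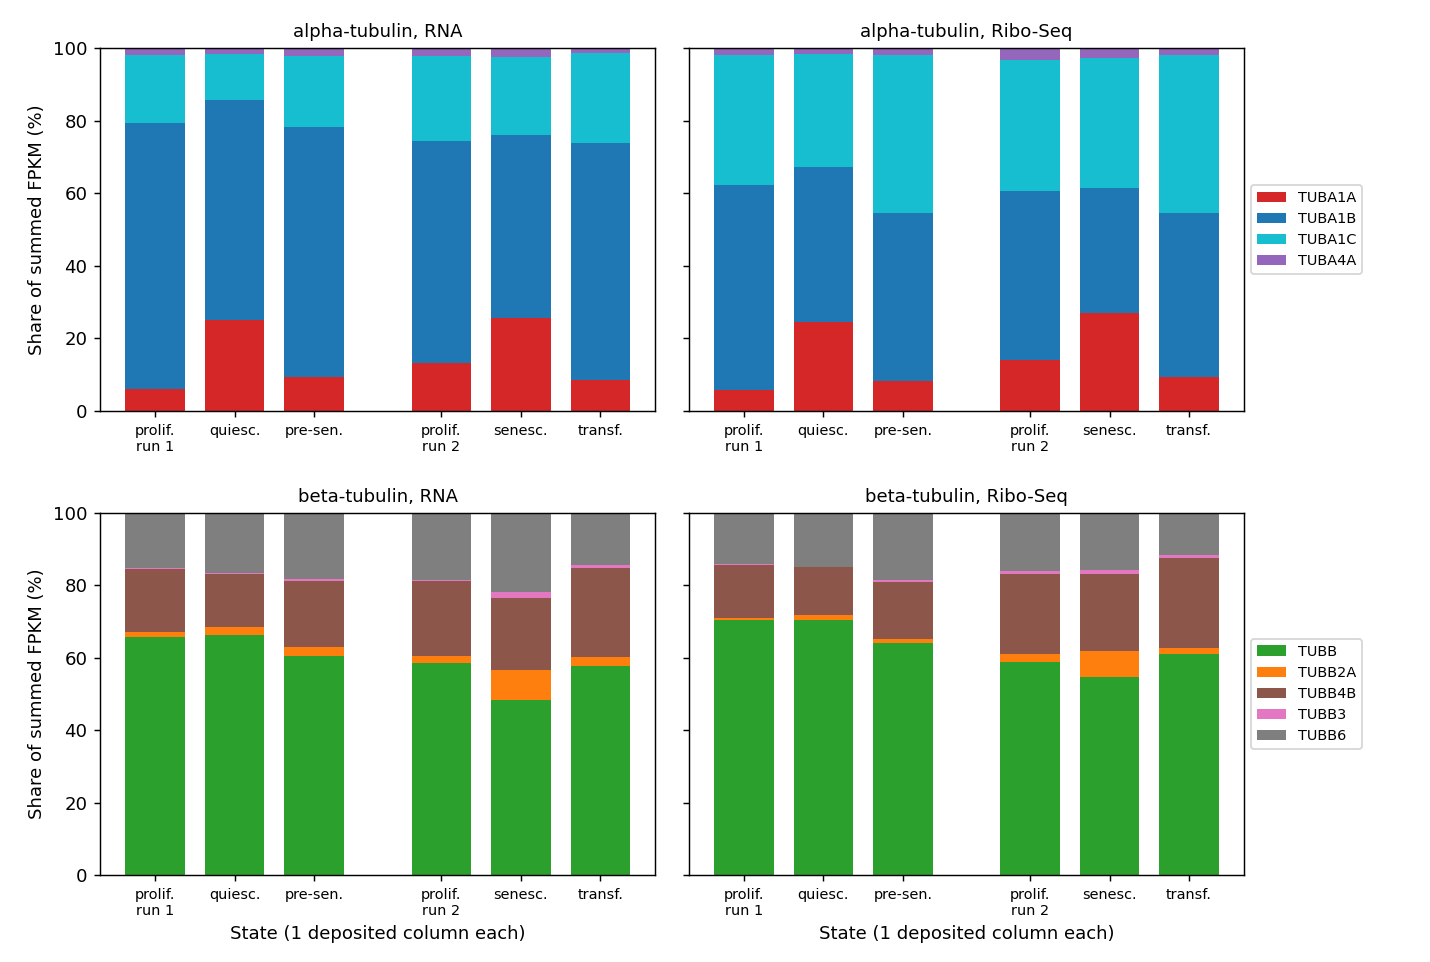
Share of each isotype in the summed FPKM of the 4 alpha-tubulins (top) and of the 5 beta-tubulins (bottom), by RNA (left) and Ribo-Seq (right), in each of the 6 columns. TUBA1A takes 25.0% of alpha-tubulin RNA in quiescence and 25.5% in senescence, and TUBB2A 8.34% of beta-tubulin RNA in senescence.

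Because FPKM is scaled by length, the isotypes of a class could be summed. Alpha-tubulin RNA summed to 737 FPKM in proliferation, 603 in quiescence and 733 in pre-senescence of run 1, and to 636, 627 and 587 in proliferation, senescence and transformed cells of run 2. The alpha-tubulin total thus differed little between states, by at most 1.22-fold from its control. The Ribo-Seq totals were 955, 644 and 788 FPKM, and 769, 699 and 599, with quiescence 1.48-fold below its control. Beta-tubulin RNA summed to 2619, 1673 and 2395 FPKM in run 1 and to 1826, 1626 and 1589 in run 2. On ribosomes the beta-tubulin totals were 4512, 2644 and 3336 FPKM, and 2741, 2266 and 2323. Quiescence was 1.56-fold (RNA) and 1.71-fold (Ribo-Seq) below its control, and the next largest shortfall was 1.35-fold, in pre-senescence by Ribo-Seq. The proliferating cultures differed nearly as much, the beta total being 1.43-fold (RNA) and 1.65-fold (Ribo-Seq) lower in run 2. The summed beta level exceeded the summed alpha level in every column, by 2.59-fold to 3.55-fold in RNA and by 3.24-fold to 4.72-fold in Ribo-Seq, a scale on which reads lost to identical stretches of the alpha genes would count.

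Within the alpha-tubulin total, the share of TUBA1A varied more than the total did. The beta-tubulin total did not follow this in quiescence, where its RNA sum was 1.56-fold lower and the TUBB share nearly unchanged. TUBA1A held 5.94% of alpha-tubulin RNA in proliferation, 25.0% in quiescence and 9.41% in pre-senescence, and in run 2 it held 13.1% in proliferation, 25.5% in senescence and 8.60% in transformed cells. Its shares of the Ribo-Seq signal were close to these, at 5.79%, 24.4% and 8.35%, and at 14.0%, 27.0% and 9.34%. Quiescence and senescence were the highest in both assays, well above both proliferating cultures. TUBA1B gave way, holding 73.3%, 60.7% and 68.8% of the RNA in run 1 and 61.2%, 50.7% and 65.1% in run 2. Among beta-tubulins TUBB held 65.7%, 66.3% and 60.5% of the RNA in run 1 and 58.6%, 48.3% and 57.8% in run 2. TUBB2A held between 1.36% and 2.30% in all states but senescence, where it held 8.34%. Its Ribo-Seq share was 6.97% in senescence and at most 2.32% elsewhere. TUBB3 peaked in senescence too, at 1.65% of beta-tubulin RNA, against 0.785% or less in the other columns.

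The isotypes differed in TE from each other more than most did between states. TUBA1C had a TE between 0.83 and 1.39 across the 6 columns and TUBA1B between -0.50 and 0.00, so every TUBA1C value lay above every TUBA1B value even though both encode almost the same protein. TUBB lay between 0.56 and 0.88 and TUBB4B between 0.26 and 0.68. TUBB3 had the widest range, from -1.10 in quiescence to 1.69 in the proliferating cells of run 2. TE compares a level over the coding sequence with one over the whole transcript, and a poorly chosen reference transcript moves it in all columns alike. Reads lost between near-identical genes could also offset TE if the assays lost unequal shares of them. Ribo-Seq fragments were shorter than the RNA-Seq reads and were counted over the near-identical coding sequences alone, so equal shares cannot be assumed. How far this moved the TE of TUBA1C against that of TUBA1B was not tested.

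Changes in TE were mostly downward and small. TUBB3 was the only isotype past 2-fold, lower by 1.45 in quiescence (4.12% of all genes tested were lower, 3.73% higher), by 1.65 in senescence (6.13% and 3.32%) and by 1.14 in transformed cells (2.11% and 1.22%) on the log2 scale. In pre-senescence 0 of 10 passed 2-fold (8.97% of genes lower, 5.7% higher), and between senescence and transformed cells 0 did (3.21% lower, 3.29% higher). TUBB3 TE differed by 1.34 between the proliferating cultures themselves, as the only isotype past 2-fold (5.82% higher, 3.83% lower). Its value in transformed cells was thus smaller than the difference between controls, and those in quiescence and senescence little larger.

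TUBA1B had a lower TE than its control in all 4 states, with log2 changes of -0.41 in quiescence, -0.47 in pre-senescence, -0.28 in senescence and -0.37 in transformed cells, against a difference of -0.13 between the proliferating cultures. The medians over all genes were -0.06, -0.14, -0.04 and -0.07. TUBA1A was likewise lower in all 4, at -0.28, -0.41, -0.13 and -0.22, with its controls 0.03 apart. TUBA4A, TUBB6 and TUBG1 were lower in all 4 too, by 0.15 to 0.56, by 0.16 to 0.37 and by 0.06 to 0.42, with controls that differed by 0.51, -0.29 and -0.09. TUBB2A was lower by 0.65, 0.68 and 0.65 in the 3 RASG12V states and by 0.03 in quiescence, with the TE of its controls 0.97 apart. TUBA1C, TUBB and TUBB4B had TE changes between -0.32 and 0.09 in the 4 states. The median over the 10 isotypes was -0.14 in quiescence, -0.30 in pre-senescence, -0.33 in senescence and -0.26 in transformed cells.

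Of 13 further tubulin genes looked up, 5 were measured and all were scarce. TUBB2B, the neighbour and close copy of TUBB2A, had RNA levels of 5.04, 7.66 and 2.73 FPKM in run 1 and 4.00, 13.4 and 4.91 in run 2, and so was 3.35-fold higher in senescence, where TUBB2A was higher too. Its Ribo-Seq level was 2.43-fold higher there, at 3.18 against 1.31 FPKM. TUBG2, TUBA8, TUBD1 and TUBE1 had RNA levels between 1 (the floor) and 10.9 FPKM. TUBA8 stood at or near the floor in RNA (at most 1.18 FPKM) yet at 3.08 to 12.6 FPKM in Ribo-Seq. By Ribo-Seq, all at low levels, TUBG2 was past 2-fold higher in quiescence and pre-senescence, TUBD1 lower in quiescence and senescence, and TUBE1 and TUBB2B lower in pre-senescence. Of all genes tested, 9.31% were higher and 8.2% lower in quiescence, 7.31% and 10.6% in pre-senescence, and 11.2% and 16.8% in senescence.

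The machinery that folds tubulin was measured in full. Of 13 prefoldin subunits and tubulin cofactors, 0 passed 2-fold by RNA in any of the 4 states. By Ribo-Seq the prefoldin subunits PFDN4 (2.78-fold) and VBP1 (2.27-fold) were lower in quiescence, PFDN1 (2.41-fold) was lower in pre-senescence, ARL2, a small GTPase that works with the cofactors, was lower in senescence (2.47-fold), and none passed in transformed cells. These were 2 of 13 in quiescence (8.2% of all genes tested were lower), 1 in pre-senescence (10.6%) and 1 in senescence (16.8%). All 8 CCT subunits were lower in quiescence in both assays, with a median log2 change of -0.51 by RNA and -0.68 by Ribo-Seq. Only TCP1 passed 2-fold (2.07-fold lower by Ribo-Seq, from 254 to 123 FPKM), 1 of 8 against 8.2% of all genes tested. The proliferating cultures differed nearly as much, with 8 of 8 lower in run 2 by RNA (median -0.44) and 7 of 8 by Ribo-Seq (-0.56). The same 8 were all higher in transformed cells by RNA, with a median of 0.40, where the isotypes had a median of -0.03. By RNA 7 of 8 were higher in pre-senescence (median 0.27) and in senescence (0.31) too, where the isotypes had medians of 0.09 and 0.04. Each of these CCT medians was smaller in size than the RNA difference between the proliferating cultures. Of 4 genes of tubulin mRNA autoregulation, 0 passed 2-fold by RNA in any state. By Ribo-Seq 1 of 4 was lower in senescence, against 16.8% of all genes tested. It was TTC5, the ribosome-associated factor that recognizes nascent tubulin (2.16-fold, 20.1 to 9.33 FPKM).

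In senescence TUBG1 RNA stood at 43.1 FPKM against 43.0 in its control, and its Ribo-Seq level was 1.33-fold lower. Of 12 partners in and around the ring complex, 3 were past 2-fold lower by RNA (13.2% of all genes tested): TUBGCP3, a core subunit (10.4 to 2.93 FPKM), NEDD1, which recruits the ring to centrosomes (24.1 to 6.90), and the pericentriolar scaffold PCNT (8.55 to 2.88). By Ribo-Seq these 3 were lower too, as was MZT1, a small ring component (123 to 34.6 FPKM), and the scaffold AKAP9 was higher, making 4 of 12 lower (16.8% of all genes) and 1 higher (11.2%). In quiescence, where TUBG1 was low, 0 of the 12 passed by RNA and only TUBGCP3 was past 2-fold lower by Ribo-Seq (2.07-fold, against 8.2% of all genes). In pre-senescence 0 passed by RNA and 1, NEDD1, was lower by Ribo-Seq (2.44-fold, against 10.6% of all genes). In transformed cells NEDD1 (2.40-fold) and AKAP9 (2.26-fold) were lower by RNA (2 of 12, against 5.39%), and MZT2A (2.04-fold) by Ribo-Seq (1 of 12, against 7.44%).

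Of 10 enzymes that modify tubulin, the deacetylase HDAC6 was lower by RNA in pre-senescence (2.08-fold) and in senescence (2.60-fold), where the acetyltransferase ATAT1 was lower as well (2.31-fold, at levels of 3.26 and 1.41 FPKM). These were 1 of 10 in pre-senescence (2.05% of all genes tested) and 2 of 10 in senescence (13.2%). In quiescence 0 passed by RNA, and by Ribo-Seq TTLL7 was higher (9.31% of all genes) and AGBL5 lower (8.2%), all at under 5 FPKM. The glutamylase TTLL4 was higher in transformed cells in both assays (2.01-fold and 2.24-fold), against 4.97% and 5.34% of all genes. By Ribo-Seq TTLL7 was higher (7.31%) and HDAC6 and CCDC23 (SVBP, the partner of the detyrosinating vasohibins) were lower (10.6%) in pre-senescence. HDAC6 and TTLL12 were lower by Ribo-Seq in senescence (16.8%).

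Among 24 microtubule-associated and dynamics genes, TPX2, a spindle assembly factor, and KIF2C, a microtubule-depolymerizing kinesin, were the only ones past 2-fold in quiescence by RNA (2.35-fold and 2.33-fold lower). Of all genes tested, 2.43% were lower and 4.11% higher there. In senescence 5 of 23 were lower and 1 higher by RNA, against 13.2% and 7.19% of all genes tested. TPX2 went from 74.4 to 6.31 FPKM. KIF2C stood at 37.1 FPKM in its control and at the floor in senescence, at least 37.1-fold lower, and STMN3, a stathmin, at 17.6 and at the floor, at least 17.6-fold lower. MAPRE3, which binds growing microtubule ends, was the higher gene (9.11 to 36.9 FPKM). The other 2 lower genes were STMN1, which sequesters tubulin dimers, and the microtubule polymerase CKAP5. By Ribo-Seq CLIP2, MAP2, MAP7 and STMN3 were higher in quiescence (4 of 24, against 9.31% of all genes) and KIF2C and TPX2 lower (2 of 24, against 8.2%). MAP2 (1.01 to 2.18 FPKM) and MAP7 (1 to 2.75) were near the floor. In pre-senescence 3 of 24 were higher (7.31%), MAP1A and MAP1B among them. MAPRE1, SPAST and STMN1 were lower there (3 of 24, against 10.6%), the last from 928 to 331 FPKM. In senescence MAP1A and MAPRE3 were higher (2 of 24, against 11.2%) and KIF2C, STMN1, STMN3 and TPX2 lower (4 of 24, against 16.8%). None passed 2-fold in transformed cells in either assay, and 0 did by RNA in pre-senescence.

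The likeness of whole patterns was measured as the Euclidean distance over 8 log2 changes (RNA and Ribo-Seq in 4 states) among 4598 genes at 10 FPKM or more in both proliferating cultures. For TUBB the nearest genes were RDX (0.447), CHAMP1 (0.454), TUBA1B (0.458), ACAD9 (0.467) and SLC25A24 (0.479). TUBB4B came 20th and TUBA1A 4359th. For TUBA1B the nearest were RAN (0.431), INO80E (0.452), TUBB (0.458), SRSF10 (0.459) and TARDBP (0.473). TUBA1B and TUBB were therefore each the third nearest gene to the other. States that share a control share its error, so these distances are a description of 12 columns.

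Promoters were read for members that moved apart, in the 250 bases before the transcription start in RefSeq (GRCh38.p14), where all 10 isotypes matched with 15 start sites in all. The motif CCAAT, on either strand, was found in 9 of the 15 windows and in 7 of the 10 isotypes, and in 32.0% of all 35116 windows. Short stretches of 30 bases are shown for TUBA1A, the isotype high in quiescence, for TUBB4B and TUBG1, both low in it, and for TUBB2A, high in senescence. Capitals mark CCAAT or, read on the other strand, ATTGG in the first 3, and TATAAA in the last.
TUBA1A (chr12:49189151-49189180, minus strand): ttctctgggcagATTGGgggtctggaccaa
TUBB4B (chr9:137241172-137241201, plus strand): acgggggcaaggCCAATcaaacgagggagc
TUBG1 (chr17:42609604-42609633, plus strand): aactcgattctcATTGGagcggaggaagtt
TUBB2A (chr6:3157557-3157586, minus strand): cgggtccccgggTATAAAagaccgagctgg
These motifs began 88, 103, 67 and 30 bases before the annotated start. TUBA1A, TUBB4B and TUBG1 all held CCAAT although their RNA went in opposite directions in quiescence. TATAAA, the TATA-box core, was found in 1 of the 15 windows, that of TUBB2A, and in 10.7% of all windows. GGGCGG, the GC-box core, was found in 9 windows of 8 isotypes and in 42.6% of all windows, and TTTGAA, the core of the CHR element known from cell-cycle genes, in 3 windows of 2 isotypes and in 13.3%. The searches counted both strands, no searched motif contains another, and a match is a string of letters and not a site in use.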

How the data were processed

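Per the labels and the study's methods, the authors aligned reads of 50 nt with Bowtie to 1 transcript per gene, the one with the longest coding sequence in Ensembl release 65 (hg19), kept unique alignments and deposited, for genes with 40 or more reads in both assays in a condition, FPKM over the whole transcript (RNA-Seq) or the coding sequence (Ribo-Seq), with values under 1 set to 1. How 2 samples were joined in 5 of the 12 columns is not given in the sources used here, and the read totals that the study lists per sample were not used. From these values, log2 ratios to the control of the same run were computed for RNA, Ribo-Seq and TE with Python 3.11.15, NumPy 2.4.6 and pandas 2.3.3, leaving out genes at the floor in both columns, and the steps were tested on simulated data. Alternatives were pseudocounts of 1 and 5 FPKM, centring on the median gene, the control of the other run, a threshold of 1.5-fold or of 175% of the local SD (501 genes of like level), and a minimum of 10 FPKM. With no replicates, a value counted as moved if it shifted by more than the difference between proliferating columns divided by the square root of 2. All isotypes and the other tubulin genes were named in full; from other lists, up to 3 genes of largest change past 2-fold per comparison were named, and every gene of a count of 5 or fewer, except items withheld and not reported here. The members and lists were chosen with earlier results of these data known.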

Additional observations from a re-analysis of the deposited data

Results flagged for a closer look

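TUBA1A stood past 1.5-fold above the proliferating control in senescence and past 1.5-fold below it in transformed cells, in both assays, so that the difference between senescence and transformation was 1.66 by RNA and 1.76 by Ribo-Seq on the log2 scale. TUBB3 Ribo-Seq was past 1.5-fold lower in quiescence and past 1.5-fold higher in pre-senescence against the same control, a difference of -2.40 on the log2 scale. With 1 column per state, neither difference was tested.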

How the results depend on the processing

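No paired analysis was possible because replicates were joined in single columns, and leaving out a replicate could not be run for the same reason. Exchanging the control shifts each log2 change by exactly the difference between the proliferating columns, so by the rule used every change of an isotype or a sum had to count as moved. With the control of the other run, the isotypes past 2-fold by RNA, Ribo-Seq and TE numbered 0, 2 and 2 in quiescence (Ribo-Seq within 1.5 times of the value reported), 0, 0 and 2 in pre-senescence, 4, 5 and 0 in senescence, and 1, 3 and 0 in transformed cells. Among isotype changes past 2-fold, only those of TUBB3 changed sign, to -0.30 in pre-senescence Ribo-Seq and to 0.20 in transformed TE. Smaller changes were not counted as reversed, and some changed sign too, among them TUBA1A in transformed cells by RNA and by Ribo-Seq. The summed alpha and beta log2 changes then were -0.078 and -0.13 (RNA), -0.26 and -0.052 (Ribo-Seq) and -0.18 and 0.074 (TE) in quiescence, 0.20 and 0.39, 0.035 and 0.28, and -0.17 and -0.11 in pre-senescence, -0.23 and -0.69, -0.45 and -0.99, and -0.22 and -0.31 in senescence, and -0.33 and -0.72, -0.67 and -0.96, and -0.35 and -0.24 in transformed cells. At 1.5-fold the counts were 5 (RNA) and 9 (Ribo-Seq) in quiescence, 3 (RNA) and 1 (TE) in pre-senescence, 2 (Ribo-Seq) and 2 (TE) in senescence, 4, 3 and 2 in transformed cells, 5 (Ribo-Seq) between senescence and transformation, and 2, 5 and 2 between controls. At 175% of the local SD they were 2 (RNA) and 1 (Ribo-Seq) in quiescence, 0 by Ribo-Seq in pre-senescence, senescence and transformed cells, 2 (RNA) between senescence and transformation and 2 (TE) between controls. A pseudocount of 1 left 1 in quiescent Ribo-Seq; one of 5 left 1 there and 0 in quiescent TE, pre-senescent RNA and Ribo-Seq, transformed Ribo-Seq and TE, and TE between controls, with 2 by RNA between senescence and transformation. A minimum of 10 FPKM left 1 in quiescent Ribo-Seq and 0 in quiescent TE and in TE between controls, since it removes TUBB3 there. Centring kept all 18 counts within 1.5 times, and moved the pre-senescent alpha and beta TE changes to -0.12 and -0.16.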
